A study of Mus musculus with 6 samples.

Results

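Complement and the clotting cascade are chains of plasma proteins, most of them made by hepatocytes, and 48 of their genes were compared between Prox1-cKO and WT mouse liver. The genes were chosen by symbol from the deposited read counts: clotting proteases and their cofactors, fibrinogen, the proteins that dissolve or restrain a clot, the complement components, and C1q, which macrophages make. All 48 symbols were found among the 29667 genes of the table, and all 48 passed the filter on low counts. Messenger RNA enriched on oligo(dT) beads from 6 livers was sequenced, 3 from Prox1-cKO mice (Alb-Cre; Prox1 f/f) and 3 from WT mice (Prox1 f/f). Both genotypes carry the floxed Prox1 allele, and only Prox1-cKO mice carry Cre driven by the albumin promoter. That promoter works in hepatocytes and their precursors, and no value here gives Prox1 by cell type. Male DEN-treated mice of both genotypes were also used in the study, and neither the age of these mice nor whether their livers were among the treated ones is stated in the sources used here. Replicates are taken as separate mice from the study's description, since the labels give only replicate numbers, and the p-values cover the variation among these 6 samples.

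In clotting, proteases activate each other in turn until thrombin cuts fibrinogen into fibrin. Several of these proteases need vitamin K for carboxylation in the liver before they are secreted. In complement, C1q, lectins or spontaneous C3 activation start a chain that splits C3 and C5 and ends with a pore of C5b to C9 in a membrane. Prox1 is a homeobox transcription factor and corepressor of hepatocytes.

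Prox1-cKO libraries held 19036950 to 20537091 reads in genes and WT libraries 18066205 to 19921674. Levels are TMM-normalized CPM, reads of each gene brought to one common total by a scaling that assumes most genes are alike between libraries. Prox1 itself was 212, 179 and 172 CPM in Prox1-cKO livers, against 558, 729 and 837 CPM in WT livers, with a log2 fold change, Prox1-cKO over WT, of −1.91 (edgeR, standard error 0.20, adjusted p = 0.00052), so it was lower in every library labelled Prox1-cKO. All 6 libraries had reads of Y-linked genes and at most 0.295 CPM of Xist. Of 15 hepatocyte markers found, 11 rose and none fell, and their summed level was 149800 to 175400 CPM in Prox1-cKO against 88150 to 99570 CPM in WT. Of 16 macrophage markers 11 fell (68.8%) and 1 rose. Of 10 stellate cell and fibroblast markers 7 fell (70%), and of 8 genes of dividing cells 7 fell (87.5%). Sinusoidal endothelium had 12 markers, of which 2 fell (16.7%) and none rose. Among all genes tested, 20.2% fell and 14.2% rose. WT replicate 3 lay apart from the other WT libraries along the second principal component, and its summed macrophage markers were 1134 CPM, against 2201 and 2234 CPM in the other WT livers. In bulk liver, fewer cells of a type and less RNA per cell cannot be told apart.

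Of the 48 genes, 10 rose in Prox1-cKO liver, 5 fell and 33 did not pass the test, which called a gene at an adjusted p under 0.05 (edgeR's quasi-likelihood test, Benjamini-Hochberg over the 14843 genes tested). That is 20.8% higher and 10.4% lower, beside 14.2% and 20.2% of all genes tested. The groups did not overlap for 18 genes that were higher and 7 that were lower in Prox1-cKO (37.5% and 14.6%), beside 23.3% and 26.6% of all genes tested. The median log2 fold change was 0.12 over the 48 genes and −0.02 over all genes tested. The 25 clotting genes had 8 rises, no fall and a median of 0.27. The 23 complement genes had 2 rises, 5 falls and a median of −0.19. No test of the difference between these groups of genes was run. The 10 that rose are F2, F7, F9, Proc, F5, F12, Klkb1, Serpinf2, Vtn and C8g, and the 5 that fell are C1qa, C1qb, C1qc, C2 and C5ar1.

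**Figure D1:**
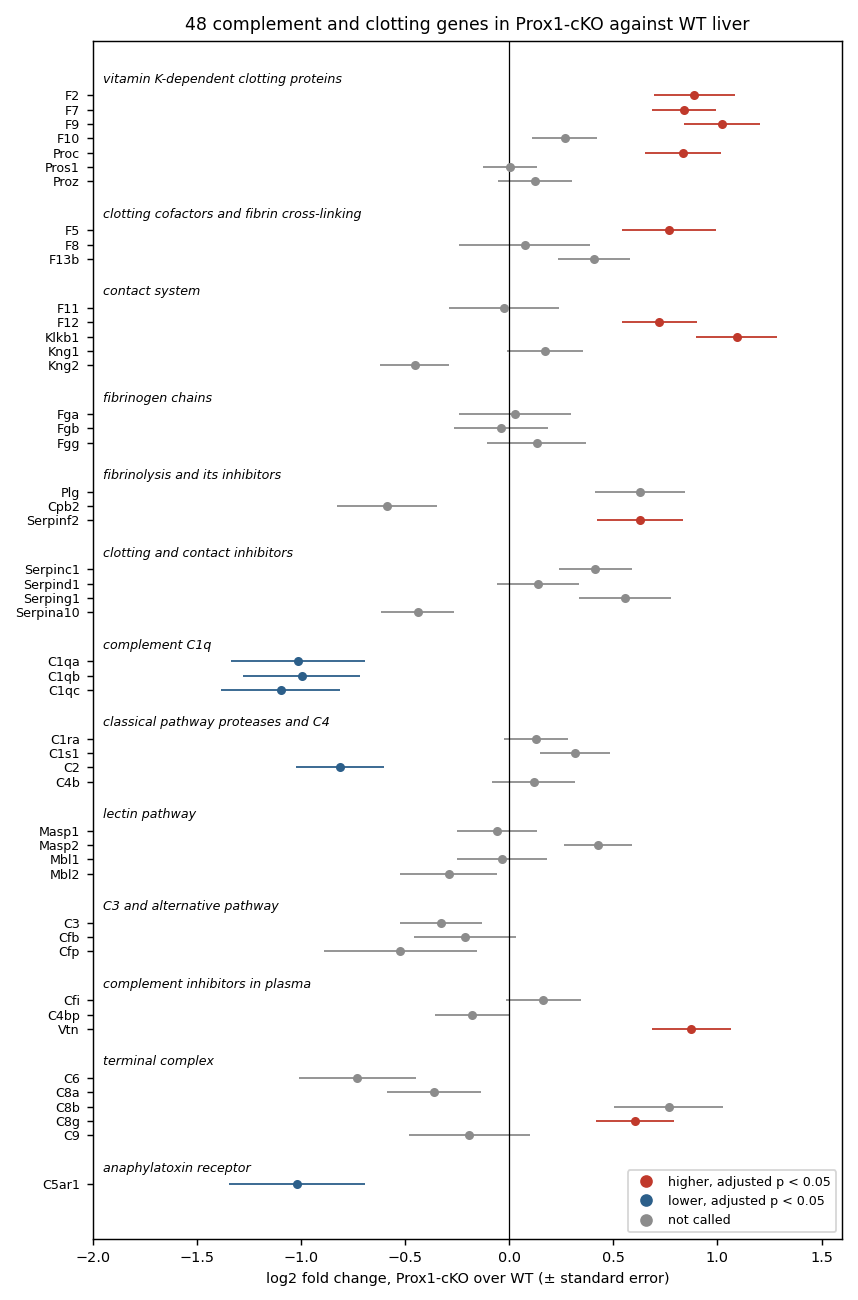
Log2 fold change of each of the 48 genes, Prox1-cKO over WT, with its standard error, grouped by role from clotting proteases at the top to the C5a receptor at the bottom. Red points rose, blue points fell and grey points did not pass the test; no clotting gene is blue, and the 3 C1q chains lie close together near −1.

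How far these counts depend on the scaling was examined by scaling to library totals alone, which moved the median log2 fold change by −0.41. The called genes were then 4 higher and 14 lower, beside 4.88% and 40.7% of all genes tested. The 4 still called higher were F2, F7, F9 and Klkb1, and the other 6 rises were not called. The 9 further genes called lower were Pros1, Kng2, Cpb2, Serpina10, Mbl2, C3, C4bp, C6 and C8a. With a term for GC content and gene length in the scaling, which was tried only after seeing the data, 15 were higher and 4 lower. Among the 14833 genes tested with this term, 3420 were higher and 2568 lower, and the median log2 fold change moved by 0.12.

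The vitamin K-dependent proteins were the role with the most rises, 4 of 7 (57.1%, beside 14.2% of all genes tested). With library totals alone F2, F7 and F9 stayed called higher, Proc was not called and Pros1 was called lower. Thrombin is made from F2, whose mRNA was 2070, 1771 and 2099 CPM in Prox1-cKO livers against 949, 993 and 1269 CPM in WT livers. The log2 fold change of F2 was 0.89 (standard error 0.19, adjusted p = 0.010), and every Prox1-cKO library lay above every WT library. Factor IX, whose loss causes haemophilia B, is encoded by F9, at 347, 321 and 241 CPM in Prox1-cKO livers against 132, 159 and 158 CPM in WT livers (log2 fold change 1.02, standard error 0.18, adjusted p = 0.0044). F7, the protease that starts clotting together with tissue factor, had 129, 107 and 89.8 CPM in Prox1-cKO livers against 58.7, 64.4 and 58.4 CPM in WT livers (log2 fold change 0.84, standard error 0.15, adjusted p = 0.0050). The WT libraries of F7 lay within a narrow range and all Prox1-cKO libraries above it. Proc encodes protein C, which cuts factors Va and VIIIa and so restrains clotting. It was 535, 488 and 625 CPM in Prox1-cKO livers against 270, 294 and 360 CPM in WT livers (log2 fold change 0.84, standard error 0.18, adjusted p = 0.010). A restrainer of clotting rose with the proteases.

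The other vitamin K-dependent genes did not pass the test. F10, whose product joins factor Va to make thrombin, was 430, 347 and 415 CPM in Prox1-cKO livers against 321, 340 and 328 CPM in WT livers, which do not overlap (log2 fold change 0.27, adjusted p = 0.22). Pros1, protein S and the cofactor of protein C, averaged 104 ± 9.21 CPM in Prox1-cKO and 104 ± 7.63 CPM in WT livers (SD, n = 3 each), so that its log2 fold change was 0.0017 with a standard error of 0.13. Proz, protein Z, a cofactor in the inhibition of factor Xa, had a log2 fold change of 0.13 with a standard error of 0.18.

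F7 and F10 are shown here because they follow each other on chromosome 8 and the ratio of their levels did not overlap between the genotypes, with F9 as the vitamin K-dependent protease with the largest rise and F11 and Klkb1 as a second neighbouring pair whose ratio did not overlap. A difference in response within these pairs was not tested, and 48.7% of all pairs of tested genes within 100 kb had such a ratio. The 200 bases before each RefSeq start site (GRCm38.p6, on the strand of the gene) are printed 5′ to 3′, with matches to CAAAGNNCA, a motif of HNF4 family receptors, on either strand in capitals. F7 is chr8:13025834-13026033 on the plus strand, F10 is chr8:13037108-13037307 on the plus strand, F9 is chrX:59999264-59999463 on the plus strand, F11 is chr8:45262032-45262231 on the minus strand, and Klkb1 is chr8:45294836-45295035 on the minus strand. The second match of F9 ends 1 base past the printed window.
F7: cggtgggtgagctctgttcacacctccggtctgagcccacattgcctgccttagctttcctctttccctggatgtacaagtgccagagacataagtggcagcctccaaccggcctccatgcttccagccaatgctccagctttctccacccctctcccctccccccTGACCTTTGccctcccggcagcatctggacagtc
F10: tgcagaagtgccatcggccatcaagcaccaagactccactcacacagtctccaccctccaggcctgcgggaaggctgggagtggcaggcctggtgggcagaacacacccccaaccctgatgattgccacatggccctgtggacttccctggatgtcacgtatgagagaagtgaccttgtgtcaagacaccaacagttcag
F9: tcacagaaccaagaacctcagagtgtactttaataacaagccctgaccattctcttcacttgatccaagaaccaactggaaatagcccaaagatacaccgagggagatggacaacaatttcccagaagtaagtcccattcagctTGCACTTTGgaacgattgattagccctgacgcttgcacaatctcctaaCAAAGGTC
F11: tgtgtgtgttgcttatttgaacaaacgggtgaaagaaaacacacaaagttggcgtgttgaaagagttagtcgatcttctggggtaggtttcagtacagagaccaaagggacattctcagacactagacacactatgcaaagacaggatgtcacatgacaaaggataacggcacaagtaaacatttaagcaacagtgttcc
Klkb1: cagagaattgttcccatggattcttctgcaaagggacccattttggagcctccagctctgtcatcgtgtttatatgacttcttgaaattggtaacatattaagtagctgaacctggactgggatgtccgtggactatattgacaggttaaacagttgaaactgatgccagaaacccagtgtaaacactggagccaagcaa

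The match begins 34 bases before the start in F7, and 56 and 8 bases before it in F9, and the windows of F10, F11 and Klkb1 hold none. A RefSeq window of 300 bases, including 50 after the start, was found for 37 of the 48 genes. The HNF4 motif was in 9 of their 39 windows (23.1%), against 6.36% of all 32851 windows. These are the windows of F7, F9, Kng2, Fga, Serpinc1, Serpind1, C1s1 and C8g, of which only F7, F9 and C8g belong to called genes. The C/EBP motif TTGCNNAA, on either strand, was in 12 windows (30.8%) against 10.8% of all. A match to these letters is a description of the window and no measure of binding.

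Among the cofactors, F5 rose. Factor V, its product, speeds the cleavage of prothrombin, and its mRNA was 988, 897 and 721 CPM in Prox1-cKO livers against 433, 441 and 658 CPM in WT livers (log2 fold change 0.77, standard error 0.23, adjusted p = 0.032). WT replicate 3 was the highest WT library and still lay under the lowest Prox1-cKO library. The call for F5 was lost without Prox1-cKO replicate 1 or 2 (adjusted p = 0.095 and 0.099) and without WT replicate 1 or 2 (0.10 and 0.11). F13b, the carrier subunit of the factor that cross-links fibrin, was 290, 211 and 205 CPM in Prox1-cKO livers against 175, 168 and 189 CPM in WT livers, without overlap and without a call (log2 fold change 0.41, adjusted p = 0.10). F8, the haemophilia A gene, is made in the liver by sinusoidal endothelium and was 40.2, 48.9 and 18.7 CPM in Prox1-cKO livers against 35.1, 30.2 and 37.0 CPM in WT livers (log2 fold change 0.07, adjusted p = 0.88). The low library for F8, Prox1-cKO replicate 3, also had the lowest sum of 12 sinusoidal endothelium markers, 551 CPM against 819 and 925 CPM in the other Prox1-cKO livers, and 692 to 932 CPM in WT livers.

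The contact system starts clotting on charged surfaces and releases bradykinin. Klkb1, plasma prekallikrein, showed the largest rise of all 48 genes, with 157, 141 and 120 CPM in Prox1-cKO livers against 48.9, 70.4 and 77.0 CPM in WT livers (log2 fold change 1.09, standard error 0.19, adjusted p = 0.0044). F12, the protease that activates prekallikrein, was 615, 610 and 779 CPM in Prox1-cKO livers against 367, 391.7 and 456.5 CPM in WT livers (log2 fold change 0.72, standard error 0.18, adjusted p = 0.018). Every Prox1-cKO library was above every WT library for both genes. The call for F12 was lost without Prox1-cKO replicate 3 (adjusted p = 0.052) and without WT replicate 1 or 2 (0.061 and 0.063). F11, which factor XIIa activates, was 90.6, 57.4 and 45.5 CPM in Prox1-cKO livers against 58.8, 57.2 and 81.0 CPM in WT livers, with wide overlap (log2 fold change −0.03, standard error 0.26). Kininogen, the source of bradykinin, has 2 genes in the mouse. Kng1 was the more abundant per length, with 621 CPM per kb of exon in Prox1-cKO and 550 in WT livers, and had a log2 fold change of 0.17 (adjusted p = 0.49). Kng2 was 249, 233 and 225 CPM in Prox1-cKO livers against 322, 374 and 271 CPM in WT livers, without overlap (log2 fold change −0.45, adjusted p = 0.066, and 0.021 without WT replicate 3). It was not called with any other single library left out. Without WT replicate 3 the calls over all genes also rose, to 2603 higher and 3478 lower, from 2102 and 2998. Of 100-base stretches of Klkb1 transcripts, 42.1% also lie in the overlapping gene model Gm45753 on the same strand, and the counting mode is not given.

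The 3 fibrinogen chains, the substrate of thrombin, were among the most abundant of the 48 genes and did not differ beyond the spread of replicates. Fga was 4838, 3722 and 2949 CPM in Prox1-cKO livers against 2690, 4206 and 4385 CPM in WT livers, a log2 fold change of 0.03 with a standard error of 0.27. The log2 fold change was −0.04 for Fgb (standard error 0.23) and 0.13 for Fgg (standard error 0.24). For all 3 chains the highest Prox1-cKO library was replicate 1 and the lowest WT library was replicate 1. Their summed level was 11747, 9009 and 8240 CPM in Prox1-cKO livers against 7131, 10825 and 10662 CPM in WT livers.

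**Figure D2:**
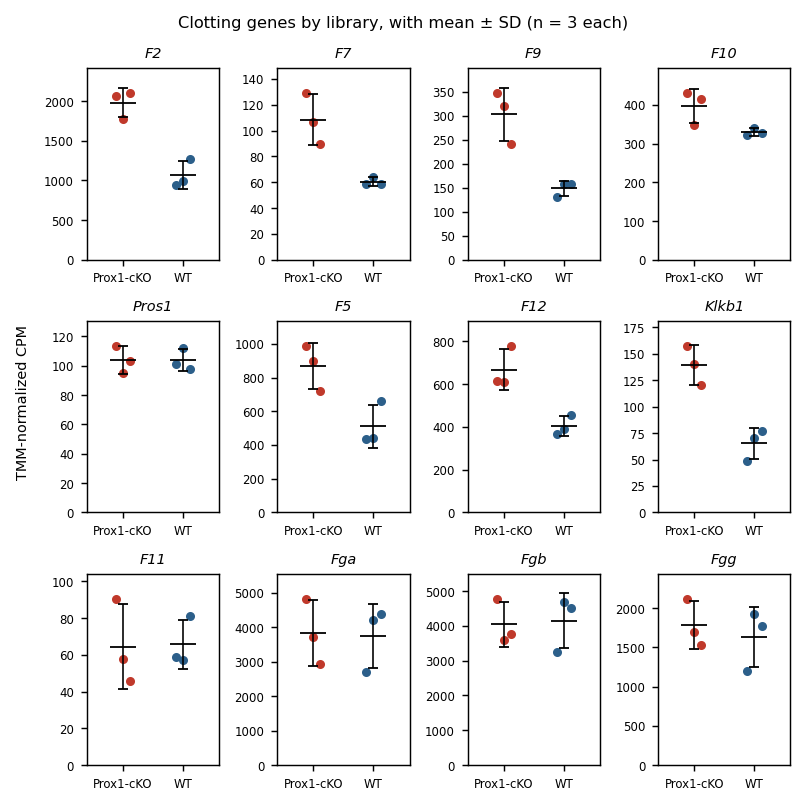
Level of 12 clotting genes in each library in TMM-normalized CPM, with Prox1-cKO in red at the left and WT in blue at the right of each panel; the bars give the mean ± SD of 3 livers. F2, F7, F9, F5, F12 and Klkb1 separate the genotypes and were called. F10 separates them narrowly without a call, whereas Pros1, F11 and the fibrinogen chains overlap.

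Among the genes that govern clot dissolution, Serpinf2, the inhibitor of plasmin, was 956, 869 and 656 CPM in Prox1-cKO livers against 462, 525 and 617 CPM in WT livers (log2 fold change 0.63, standard error 0.21, adjusted p = 0.046). This call lay close to the threshold and was lost without Prox1-cKO replicate 1 or 2 (adjusted p = 0.13 and 0.14) and without WT replicate 1 or 2 (0.14 and 0.12). Plg, plasminogen itself, was 3091, 2481 and 2282 CPM in Prox1-cKO livers against 1387, 1717 and 1977 CPM in WT livers, without overlap, at an adjusted p of 0.053 (log2 fold change 0.63, standard error 0.22, and adjusted p = 0.023 without WT replicate 3). Cpb2, a carboxypeptidase that protects fibrin from plasmin, was 368, 220 and 228 CPM in Prox1-cKO livers against 470, 414 and 342 CPM in WT livers (log2 fold change −0.59, adjusted p = 0.091, and 0.026 without Prox1-cKO replicate 1). Neither Plg nor Cpb2 was called with any other single library left out. The plasmin system thus had values on both sides of 0.

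None of the 4 clotting and contact inhibitors passed the test. Serpinc1, antithrombin, was 2252, 1998 and 2108 CPM in Prox1-cKO livers against 1516, 1495 and 1761 CPM in WT livers, without overlap (log2 fold change 0.41, adjusted p = 0.10, and 0.048 without WT replicate 3). Serping1, the inhibitor of C1 and of kallikrein, was 1303, 1109 and 989.8 CPM in Prox1-cKO livers against 735, 967 and 611 CPM in WT livers (log2 fold change 0.56, adjusted p = 0.084). Serpind1, heparin cofactor II, had a log2 fold change of 0.14 (adjusted p = 0.61), and Serpina10, the partner of protein Z, of −0.44 (adjusted p = 0.085, and 0.0090 without WT replicate 3). Serpinc1 and Serpina10 were not called with any other single library left out. Of Serpinc1 transcript stretches 58.4% are shared with Zbtb37 on the opposite strand, so reads of these genes cannot be told apart if the counting ignored strand.

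All 3 chains of C1q, which binds antibody complexes and starts the classical pathway, fell. C1qb was 66.1, 51.8 and 57.1 CPM in Prox1-cKO livers against 150, 131 and 67.4 CPM in WT livers (log2 fold change −0.996, standard error 0.28, adjusted p = 0.029). C1qc was 62.7, 50.7 and 48.6 CPM in Prox1-cKO livers against 152, 128 and 67.1 CPM in WT livers (log2 fold change −1.10, standard error 0.29, adjusted p = 0.022). C1qa was 55.5, 46.7 and 46.7 CPM in Prox1-cKO livers against 130, 119 and 51.4 CPM in WT livers (log2 fold change −1.02, standard error 0.32, adjusted p = 0.045). WT replicate 3 lay next to the Prox1-cKO livers for each chain, and for C1qa the groups overlapped. C1qa was not called without any 1 of the other 5 libraries (adjusted p = 0.087, 0.13 and 0.12 without Prox1-cKO replicates 1 to 3, and 0.12 and 0.13 without WT replicates 1 and 2). With limma-trend, without the filter on low counts, or with the term for GC content and gene length, the adjusted p of C1qa was 0.073, 0.16 and 0.063. C1qb was not called without those 5 libraries in turn either (0.060, 0.10, 0.091, 0.079 and 0.084). C1qc was not called without Prox1-cKO replicate 2 or 3 (0.081 and 0.080) or WT replicate 1 or 2 (0.057 and 0.066). Without WT replicate 3, the adjusted p was 0.00027 for C1qa, 0.00050 for C1qb and 0.00048 for C1qc.

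The macrophage markers are given beside C1q for each library. The 3 chains summed to 184, 149 and 152 CPM in Prox1-cKO livers against 431, 379 and 186 CPM in WT livers, and the 16 macrophage markers to 1052, 825 and 708 CPM in Prox1-cKO livers against 2201, 2234 and 1134 CPM in WT livers. C1q therefore came to 17.5%, 18.1% and 21.5% of the marker sum in Prox1-cKO livers and to 19.6%, 16.9% and 16.4% in WT livers, and these shares overlap. Mpeg1 was the largest term of the marker sum in WT livers, at 698, 696 and 455 CPM. In Prox1-cKO livers it was 139, 111 and 83.6 CPM (log2 fold change −2.475). The shares therefore depend on the markers summed, and shares without Mpeg1 were not computed. None of the 16 markers was at 0. The Kupffer cell markers Cd5l (212, 154 and 161 CPM in Prox1-cKO livers against 521, 499 and 134 CPM in WT livers) and Clec4f (186, 160 and 152 CPM in Prox1-cKO livers against 312, 287 and 136 CPM in WT livers) also had WT replicate 3 at the level of the Prox1-cKO livers. For 10 of the 16 markers, by contrast, every WT library, replicate 3 included, lay above every Prox1-cKO library. That is 62.5%, beside 26.6% of all genes tested. Cd163 was the macrophage marker that rose (log2 fold change 1.30).

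**Figure D3:**
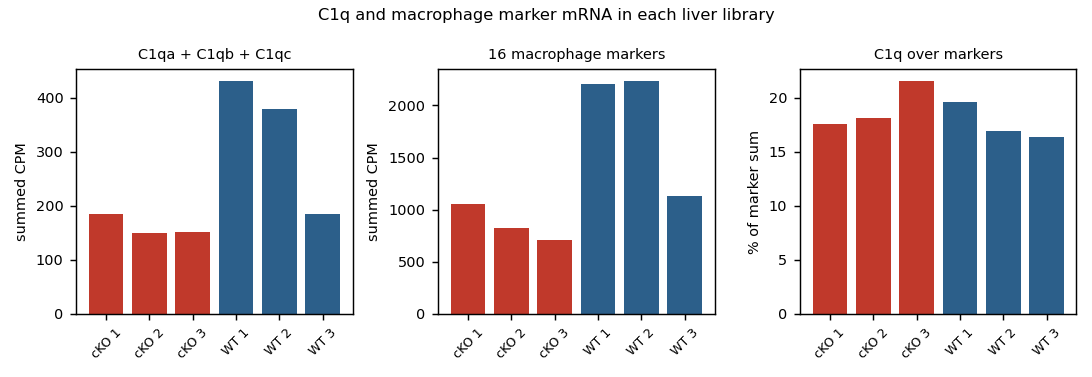
Summed CPM of C1qa, C1qb and C1qc (left), summed CPM of 16 macrophage markers (middle) and C1q as a percentage of that sum (right) in each library, with the 3 Prox1-cKO livers in red and the 3 WT livers in blue. WT replicate 3 is low in both sums, and the percentages of the genotypes overlap, between 16.4% and 21.5%. These percentages depend on the markers summed, of which Mpeg1 is the largest in WT livers, and were not computed without Mpeg1.

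C1qc is shown because it is the only one of the 39 windows with a match to GAGGAAGT, a motif of the myeloid factor PU.1, on either strand (2.56% of these windows against 3.2% of all). Its 200 bases before the RefSeq start are chr4:136892915-136893114 on the minus strand (GRCm38.p6), with the match, 195 bases before the start, in capitals.
C1qc: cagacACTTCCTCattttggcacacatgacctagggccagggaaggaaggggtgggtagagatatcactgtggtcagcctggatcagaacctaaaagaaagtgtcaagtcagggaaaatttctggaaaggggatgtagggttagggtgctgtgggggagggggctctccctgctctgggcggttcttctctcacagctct

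2 further complement genes of immune cells were in the list. C5ar1, the receptor of the anaphylatoxin C5a on myeloid cells, was 1.37, 1.04 and 1.42 CPM in Prox1-cKO livers against 3.31, 1.73 and 2.74 CPM in WT livers (log2 fold change −1.02, standard error 0.33, adjusted p = 0.042). It was the member with the lowest CPM and had at most 54 reads in WT replicates 2 and 3. The call for C5ar1 was lost without any of Prox1-cKO replicates 1 to 3 (adjusted p = 0.090, 0.14 and 0.079), WT replicate 1 (0.14) or WT replicate 3 (0.064). Cfp, properdin, the stabiliser of the alternative pathway convertase, was 48.2, 38.6 and 38.2 CPM in Prox1-cKO livers against 77.3, 75.0 and 27.1 CPM in WT livers (log2 fold change −0.52, adjusted p = 0.31). WT replicate 3 was the lowest of all 6 libraries for Cfp, and without it the adjusted p was 0.0021. Cfp was not called under any other alternative. As a share of the summed macrophage markers, Cfp was 4.58%, 4.68% and 5.39% in Prox1-cKO livers against 3.51%, 3.36% and 2.39% in WT livers, higher in Prox1-cKO without overlap. This share likewise depends on the markers summed, Mpeg1 above all, and was not computed without Mpeg1. A ratio without overlap is common here, at 48.7% of all pairs of tested genes within 100 kb.

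The classical and lectin pathway genes of hepatocytes mostly did not pass the test. C4b, which encodes C4, was 2225, 2013 and 1527 CPM in Prox1-cKO livers against 1671, 1753 and 1888 CPM in WT livers (log2 fold change 0.12, adjusted p = 0.68). The C1 proteases C1ra and C1s1 had log2 fold changes of 0.13 and 0.32 (adjusted p = 0.55 and 0.18). Of the lectin pathway, Masp2, the protease that cuts C4 after a lectin has bound sugar, was 241, 207 and 195 CPM in Prox1-cKO livers against 137, 159 and 183 CPM in WT livers, without overlap (log2 fold change 0.43, adjusted p = 0.077, and 0.025 without WT replicate 3). Masp2 was not called with any other single library left out. Masp1 and the mannose-binding lectins Mbl1 and Mbl2 had log2 fold changes of −0.06, −0.03 and −0.29, all with overlap. Of 100-base transcript stretches, 35.9% of C1ra and 20.0% of C1s1 are shared with near copies or overlapping models, and 55.6% of Masp2 with its neighbour Tardbp, so their reads are less certain.

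C2, the protease part of the classical C3 convertase, was the only called gene of these pathways beside C1q. It was 7.25, 9.50 and 7.16 CPM in Prox1-cKO livers against 11.1, 17.6 and 13.4 CPM in WT livers (log2 fold change −0.81, standard error 0.21, adjusted p = 0.020). The groups of C2 did not overlap, and the call was lost without Prox1-cKO replicate 1 or 3 (adjusted p = 0.070 and 0.067) or WT replicate 2 (0.070). Cfb, its counterpart in the alternative pathway, was 2.0, 2.62 and 2.66 CPM in Prox1-cKO livers against 2.56, 2.65 and 3.25 CPM in WT livers (log2 fold change −0.21, adjusted p = 0.53). Both had low levels here, and 53.2% of C2 and 81.0% of Cfb transcript stretches are also in Gm20547, a gene model that runs through both on the same strand and is not a row of the count table. Their levels, and the change in C2, therefore cover only reads that the counting assigned to these genes.

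C3, at which all pathways meet, had the highest level per length of the 48 genes in both genotypes, 1701 CPM per kb of exon in Prox1-cKO and 2132 in WT livers. It was 8177, 8086 and 9974 CPM in Prox1-cKO livers against 11100, 11625 and 10164 CPM in WT livers, without overlap and without a call (log2 fold change −0.33, standard error 0.20, adjusted p = 0.23). Vtn, vitronectin, a plasma protein that keeps the terminal complex from inserting into membranes, rose. It was 2693, 2332 and 2322 CPM in Prox1-cKO livers against 1130, 1447 and 1431 CPM in WT livers (log2 fold change 0.87, standard error 0.19, adjusted p = 0.0099). Per length, Vtn was the third of the 48 genes in Prox1-cKO livers (1206 CPM per kb) and the fifth in WT livers (658 CPM per kb). Cfi, the protease that destroys C3b and C4b, and C4bp, its cofactor, had log2 fold changes of 0.16 and −0.18 (adjusted p = 0.52 and 0.47).

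Of the 5 genes of the terminal complex, 1 was called, C8g. No test compared their responses with each other. Complement C8 has an alpha, a beta and a gamma chain. C8g, the gamma chain, rose, at 301, 217 and 268 CPM in Prox1-cKO livers against 141, 180 and 196 CPM in WT livers (log2 fold change 0.60, standard error 0.19, adjusted p = 0.039). The call for C8g was lost without Prox1-cKO replicate 1 or 3 (adjusted p = 0.12 and 0.087) and without WT replicate 1 or 2 (0.12 and 0.085). C8b, the beta chain, was 513, 342 and 359 CPM in Prox1-cKO livers against 165, 241 and 308 CPM in WT livers, without overlap, at an adjusted p of 0.053 (log2 fold change 0.77, standard error 0.26, and adjusted p = 0.013 without WT replicate 3). C8b was not called with any other single library left out. C8a, the alpha chain, was 661, 603 and 622 CPM in Prox1-cKO livers against 580, 804 and 1037 CPM in WT livers (log2 fold change −0.36, adjusted p = 0.25). C6, which joins C5b, was 193, 228 and 283 CPM in Prox1-cKO livers against 286, 318 and 563 CPM in WT livers, without overlap (log2 fold change −0.73, standard error 0.28, adjusted p = 0.079). C9, the chain that forms the ring of the pore, was 691, 387 and 361 CPM in Prox1-cKO livers against 414, 605 and 623 CPM in WT livers (log2 fold change −0.19, adjusted p = 0.64).

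**Figure D4:**
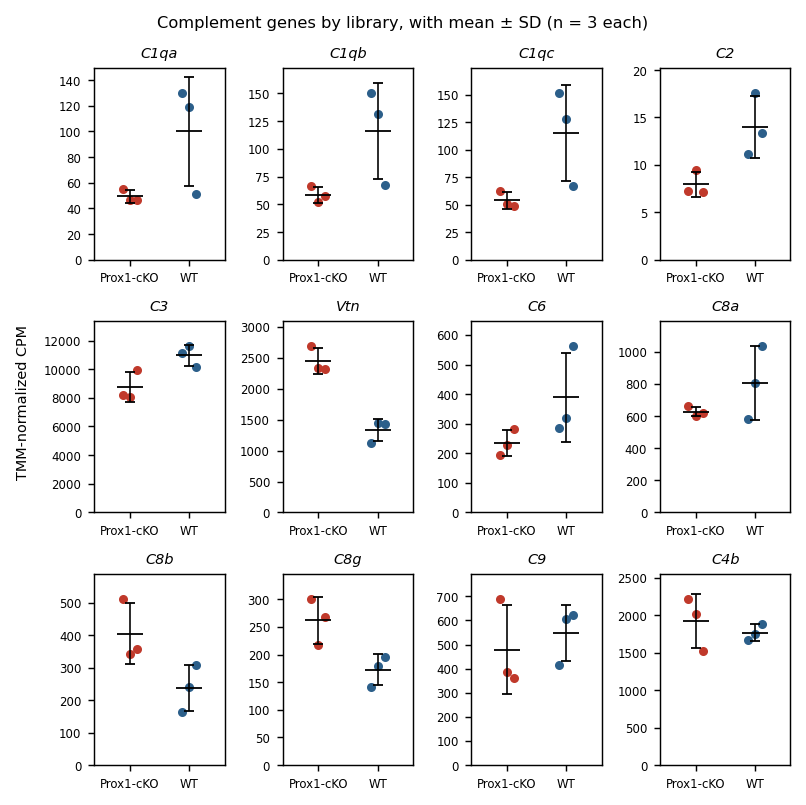
Level of 12 complement genes in each library in TMM-normalized CPM, with Prox1-cKO in red at the left and WT in blue at the right of each panel; the bars give the mean ± SD of 3 livers. For the C1q chains 1 WT liver lies at the Prox1-cKO level, and C8b and C8g are higher in Prox1-cKO while C8a and C9 overlap.

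Genes of these cascades often lie side by side, and 19 of the 48 form 14 pairs within 100 kb of each other. The ratio of levels within a library does not depend on the scaling between libraries, and it separated the genotypes for 6 of the 14 pairs (42.9%). Over all 31319 pairs of tested genes within that distance and with reads in every library, 48.7% did so, so the share among the members is near the background. F11 and Klkb1, which arose by duplication, lie 4.66 kb apart on chromosome 8, and F11 was 0.575, 0.408 and 0.378 times the level of Klkb1 in Prox1-cKO livers against 1.20, 0.812 and 1.05 times in WT livers. C8a and C8b lie 11.1 kb apart on chromosome 4, and C8a was 1.29, 1.76 and 1.73 times the level of C8b in Prox1-cKO livers against 3.52, 3.34 and 3.37 times in WT livers. F7 ends 1499 bases before F10 begins, and F7 was 0.2998, 0.307 and 0.217 times the level of F10 in Prox1-cKO livers against 0.183, 0.189 and 0.178 times in WT livers. F7 was also higher against Proz, the next gene, at 0.254, 0.245 and 0.201 times in Prox1-cKO livers against 0.158, 0.162 and 0.116 times in WT livers. Kng1 was 9.10, 7.93 and 8.63 times the level of Kng2 in Prox1-cKO livers against 5.16, 5.22 and 6.46 times in WT livers. The sixth pair was C2 and Cfb, with 3.63, 3.63 and 2.69 in Prox1-cKO livers against 4.35, 6.62 and 4.11 in WT livers. Its ratio shares the limit of the counting of both genes. The ratio of F11 to Klkb1 is limited likewise, since 42.1% of Klkb1 stretches also lie in Gm45753. For the pairs of the fibrinogen chains, of the C1q chains, of C1ra with C1s1 and of F10 with Proz the ratios overlapped. An exact permutation test of 3 libraries against 3 cannot give a p below 0.1, so these ratios are a description.

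**Figure D5:**
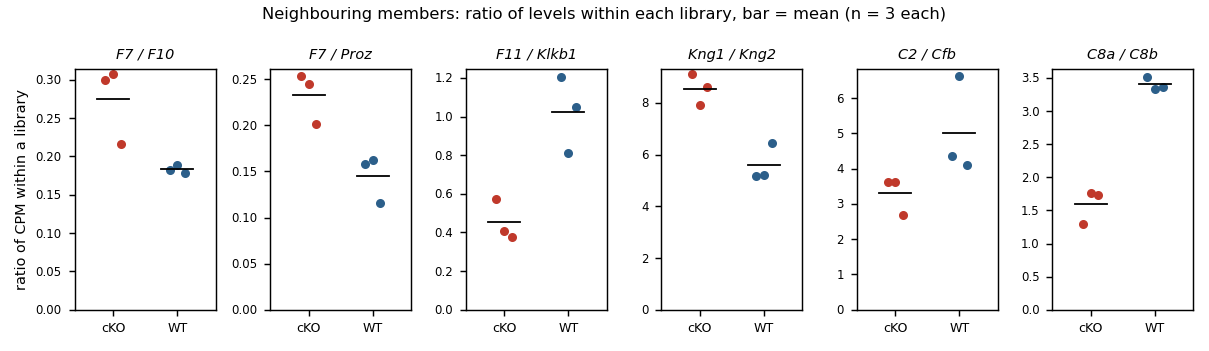
Ratio of the CPM of 2 neighbouring genes within each library for the 6 pairs whose ratios did not overlap, with Prox1-cKO in red at the left and WT in blue at the right; the bar is the mean of 3 livers. The ratio of C8a to C8b lies between 1.29 and 1.76 in Prox1-cKO and between 3.34 and 3.52 in WT.

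Of 66 other genes of these pathways, 61 were tested, of which 5 rose and 22 fell (8.2% and 36.1%, beside the 14.2% and 20.2% of all genes tested), with a median log2 fold change of −0.18. Of the other liver-made complement genes, Hc, which encodes C5, was 1252, 1052 and 873 CPM in Prox1-cKO livers against 1400, 2064 and 2229 CPM in WT livers (log2 fold change −0.84, standard error 0.24, adjusted p = 0.028). Its call was lost without Prox1-cKO replicate 2 or 3 (adjusted p = 0.10 and 0.094) and without WT replicate 2 (0.087). C4a, the near copy of C4b, was 20.9, 19.1 and 28.3 CPM in Prox1-cKO livers against 120, 200 and 106 CPM in WT livers (log2 fold change −2.64, adjusted p = 0.00063). Since 16.5% of the stretches of C4a and C4b are shared, part of their reads could be split between them.

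Of the 11 receptors and membrane regulators of complement tested, 5 fell and 1 rose. Itgax (log2 fold change −2.98) and Itgb2 (−1.57), the chains of a complement receptor of myeloid cells, and C3ar1, the C3a receptor (−1.13), fell, with adjusted p of 0.00051, 0.0041 and 0.019. The call for C3ar1 was lost without WT replicate 1 (adjusted p = 0.063). Cd59a, which stops the terminal pore on the cell's own membrane, rose to 53.0, 53.8 and 51.1 CPM in Prox1-cKO livers, against 20.9, 23.9 and 38.2 CPM in WT livers (log2 fold change 0.93, adjusted p = 0.013). C5ar2, the second C5a receptor, named here after its values were seen, was 3.50, 3.11 and 2.48 CPM in Prox1-cKO livers against 3.57, 3.83 and 3.66 CPM in WT livers and was not called (log2 fold change −0.28, adjusted p = 0.35). The macrophage markers summed to 708 to 1052 CPM in Prox1-cKO livers against 1134 to 2234 CPM in WT livers. All 5 neutrophil markers tested fell, and the 8 on the list summed to 5.15 to 7.56 CPM in Prox1-cKO livers against 17.9 to 23.5 CPM in WT livers. The part of these cells in the changes of the receptors was not tested.

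Of 18 other clotting genes tested, 1 rose and 8 fell. Hrg, histidine-rich glycoprotein, a plasma protein that binds heparin and plasminogen, was 1290, 1095 and 944 CPM in Prox1-cKO livers against 437, 414 and 695 CPM in WT livers (log2 fold change 1.11, adjusted p = 0.011). Serpina5, the protein C inhibitor, had 2, 1 and 4 reads in the Prox1-cKO libraries (0.125, 0.0546 and 0.237 CPM), against 115, 129 and 175 CPM in WT livers (adjusted p = 4.9e-06). F2r, the thrombin receptor, Fgl2, a prothrombinase of immune cells, and F3, tissue factor, fell by 1.52, 2.56 and 0.77 on the log2 scale (adjusted p = 0.0018, 0.0032 and 0.033). F3 was low, with 4.06, 5.35 and 4.02 CPM in Prox1-cKO livers against 9.08, 8.0 and 5.79 CPM in WT livers, and its call was kept only without WT replicate 3, with an adjusted p of 0.050 to 0.12 without any other library.

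Of 10 other fibrinolysis genes tested, 6 fell and none rose. A2m, a broad protease inhibitor that also binds plasmin, had 3, 1 and 1 reads in the Prox1-cKO libraries against 15.3, 48.8 and 12.2 CPM in WT livers (adjusted p = 0.0013). Anxa2, a cell surface receptor for plasminogen and its activator, was 6.31, 8.46 and 9.52 CPM in Prox1-cKO livers against 77.7, 41.1 and 66.2 CPM in WT livers (log2 fold change −2.93, adjusted p = 0.00038). Plau, urokinase, and Plgrkt, another plasminogen receptor, had log2 fold changes of −1.50 and −0.96 (adjusted p = 0.0067 and 0.0084).

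Of the 7 genes of the vitamin K cycle and of the maturation of its substrates, 2 rose and 1 fell. Vkorc1l1, a reductase that recycles vitamin K, was 67.1, 72.4 and 68.9 CPM in Prox1-cKO livers against 49.7, 45.3 and 46.5 CPM in WT livers (log2 fold change 0.56, adjusted p = 0.0063). Furin, which cuts the propeptides of clotting factors, was 280, 297 and 328 CPM in Prox1-cKO livers against 201, 193 and 218 CPM in WT livers (log2 fold change 0.57, adjusted p = 0.019), a call lost without Prox1-cKO replicate 2 or 3 (0.067 and 0.053) or WT replicate 1 or 2 (0.061 and 0.072). Calu, calumenin, an inhibitor of the carboxylase, was 114, 103 and 105 CPM in Prox1-cKO livers against 182, 168 and 147 CPM in WT livers (log2 fold change −0.63, adjusted p = 0.010, and 0.059 without Prox1-cKO replicate 2). Ggcx, the carboxylase, was 49.0, 55.6 and 49.2 CPM in Prox1-cKO livers against 58.2, 70.9 and 68.2 CPM in WT livers, without overlap (adjusted p = 0.056). Ggcx is named here after its values were seen. With library totals alone, neither Vkorc1l1 (log2 fold change 0.15, adjusted p = 0.32) nor Furin (0.16, adjusted p = 0.37) was called.

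The 48 genes were set beside other proteins that hepatocytes secrete. Of 13 apolipoproteins, 9 rose and 1 fell (69.2% and 7.69%, beside 14.2% and 20.2% of all genes tested). Their median log2 fold change was 1.09. Of 18 other plasma proteins of hepatocytes such as albumin and transthyretin, 10 rose (55.6%) and none fell, with a median of 0.78. Of 17 acute phase proteins, some of which are also in the preceding list, 2 rose and 5 fell (11.8% and 29.4%), with a median of −0.25. The 42 members other than C1q, C5ar1, Cfp and F8 had 10 rises and 1 fall (23.8% and 2.38%), with a median of 0.14. Among the genes left out, the C1q chains and C5ar1 all fell. With library totals alone, 4 of the 48 genes were called higher. Albumin and transthyretin are also among the 15 hepatocyte markers, of which 11 rose, so these lists are not independent. Alb, the largest term of the marker sum, was not called (log2 fold change 0.50, adjusted p = 0.12). The part of hepatocyte RNA content in the members' values was not tested.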

How the data were processed

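Liver RNA of 3 Prox1-cKO and 3 WT mice was enriched on oligo(dT) beads, randomly primed and sequenced on an Illumina NovaSeq. The authors deposited whole read counts per gene, which were used without change. Per the submitters' processing notes, reads were handled with HISAT2 2.1.0, HTSeq and DESeq. The same notes give GRCh38, which is a human build, but 29641 of the 29667 gene identifiers occur in the mouse annotation GENCODE M21. For strand and counting mode, the sources used here give nothing. A table that the authors named FPKM, which holds the same reads divided by library totals (CPM), was not used.

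The test was that of edgeR 4.0.16 (R 4.3.3): filterByExpr by genotype, TMM, and the robust quasi-likelihood test with Benjamini-Hochberg adjustment over all 14843 genes tested (threshold 0.05). The common dispersion was 0.0465. Standard errors are of the log2 fold change, Prox1-cKO over WT. The script was tested on simulated data. Exon lengths, positions and shared 100-base stretches came from GENCODE M21, and promoters from RefSeq on GRCm38.p6. The members and the lists were chosen with earlier results of these data known. All members are accounted for. Other pathway genes are named if called, without overlap and at 5 CPM or more in the higher group, up to the 4 largest changes each way per list, and some results under this rule are not reported here. Alternatives were RLE scaling, library totals, other filters, a replicate block, each library left out, DESeq2 1.42.0, limma-trend (limma 3.58.1), a fold of at least 2, and an offset for GC content and gene length, the last added after seeing the data. Python 3.11.15 and matplotlib 3.10.9 drew the figures.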

Additional observations from a re-analysis of the deposited data

How the results depend on the processing

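Of the 15 called genes, 4 (F2, F7, F9 and Klkb1) were called under each of 14 alternatives that give a p, and of the 33 not called 19 were never called with the same sign. The main counts were 10 higher and 5 lower. Library totals alone gave 4 higher and 14 lower, with 2 higher among the other pathway genes, and 725 higher and 6034 lower among all genes. A fold of at least 2 left 2 higher and 3 lower, with 1 higher and 16 lower among the other pathway genes. Among all genes it left 727 higher and 2075 lower. The offset for GC content and gene length gave 11 higher among the other pathway genes and 3420 higher among all genes, against 5 and 2102. Leaving out 1 library at a time gave 6 to 14 members higher and 0 to 7 lower, 3 to 11 other pathway genes higher and 16 to 22 lower, and 1207 to 2603 genes higher and 1979 to 3478 lower in all. The count of members lower was 0 without Prox1-cKO replicate 3 (edgeR), where 2 libraries remained, and 7 without WT replicate 3. DESeq2 called 15 higher and 6 lower, beside 2302 and 3144 of the 19019 genes to which it gave an adjusted p. With at least 10 counts in every library, Serpinf2 and C8g were not called (adjusted p = 0.062 and 0.053).

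The log2 fold change changed sign only for genes not called. With library totals alone it was −0.15 for F10, −0.42 for Pros1, −0.28 for Proz, −0.33 for F8, −0.005 for F13b, −0.24 for Kng1, −0.38 for Fga, −0.28 for Fgg, −0.28 for Serpind1, −0.29 for C1ra, −0.093 for C1s1, −0.29 for C4b and −0.25 for Cfi. With at least 10 counts in every library it was −0.044 for Pros1 and −0.015 for Fga, with limma-trend −0.029 for F8, and with the offset 0.004 for F11, 0.052 for Fgb, 0.10 for Masp1 and 0.018 for Mbl1. Leaving out 1 library at a time it was −0.054 to 0.074 for Pros1, −0.20 to 0.39 for F8, −0.34 to 0.18 for F11, −0.16 to 0.20 for Fga, −0.18 to 0.064 for Fgb, −0.043 to 0.27 for Fgg, −0.016 to 0.30 for Serpind1, −0.26 to 0.096 for Masp1 and −0.19 to 0.21 for Mbl1.

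The replicate numbers were not taken as pairs, since neither the labels nor a correlation above 0.1 in every pair supports it: deviations of same-numbered libraries correlated at 0.148, 0.0561 and 0.155, and those of the other pairs at −0.158 to 0.0589. Every library except WT replicate 2 correlated best with the one of its own number, which is a hint from the data and not from the design. With the number as a replicate block, 7 members were higher and 7 lower, beside 2021 and 2972 of the 14843 genes tested. The log2 fold change of F8 was then −0.017. F5, Serpinf2 and C8g were then not called (adjusted p = 0.056, 0.085 and 0.062), and Cpb2 and C6 were (0.041 and 0.029). Of the other pathway genes named, Hc was not called with the block (log2 fold change −0.83, adjusted p = 0.059).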
